A study of Rattus norvegicus with 24 samples.

Results

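The keratin gene family was described in nasal tissue and in white blood cells of rats that had inhaled formaldehyde. Its members were the genes whose symbol is Krt followed by a number and that had a probe set carrying no other symbol, which leaves out the keratin-associated protein genes. There were 44 such genes among the 14506 genes named by this rule, and they held 47 of the 29214 probe sets of the array. Krt18 had 3 probe sets and Krt8 had 2, and each gene was represented by the probe set with the highest mean over the nose arrays. A probe set shared by Krt5 and Krt75 and another shared by Krt31, Krt33b and Krt33a were left out, so Krt5, Krt75 and Krt33a were not analysed here. In RefSeq GRCr8, 25 of the members lie in the type I keratin cluster on 1 chromosome, and the other 19, which are type II keratins and Krt18, lie in the cluster on another.

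Keratins form the intermediate filaments of epithelial cells, and each filament is built from pairs of a type I and a type II keratin. Simple epithelium makes Krt8 with Krt18, the basal layer of stratified epithelium makes Krt5 with Krt14, cells above the basal layer make Krt1 with Krt10 where the epithelium cornifies and Krt4 with Krt13 where it does not, and a further set of keratins builds hair and its root sheath. The lining of the rat nose passes from squamous epithelium at the nostril through transitional and respiratory epithelium to olfactory epithelium at the back, and these linings make different keratins.

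Male Fischer rats of about 8 weeks at the start of the study inhaled 2 ppm formaldehyde, made by vaporizing [13CD2]-paraformaldehyde, for 6 hours daily in nose-only tubes, for 7 days (7 d) or 28 days (28 d). Controls sat in the same tubes with room air for as long, and all the rats had been conditioned to the tubes. Nasal tissue was taken from the maxilloturbinate, a scroll of bone and mucosa in the front of the nose, which the labels call nasal epithelial cells, and white blood cells were isolated from whole blood. RNA was measured on Affymetrix arrays in 8 groups of 3 arrays, namely exposed and control nose at 7 d, exposed and control nose at 28 d, and the same groups of blood. The labels do not state that the replicates are separate animals, so each p-value reflects no more than the spread between these samples, which may be technical, and 3 arrays per group limit the precision.

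All levels are log2 values of the intensity the authors deposited, and each difference is given on that log2 scale with its standard error (SE) from limma. A gene rose or fell only where its p-value in limma was under 0.05 after Benjamini-Hochberg adjustment across every probe set tested. A probe set was tested where its mean reached percentile 25 of the tissue, a log2 level of 6.61 in nose and 5.96 in blood, which 34 of the 44 keratins did in nose and 33 in blood. The median intensity of an array ran from 305 to 312 in nose and from 175 to 181 in blood at 7 d, and from 163 to 172 in nose and from 113 to 119 in blood at 28 d. Levels were therefore compared only within a day. Of 9 markers common to epithelia 9 were higher in unexposed nose than in unexposed blood, by 2.96 or more (median difference 4.60). Of 11 leukocyte markers 11 were lower in nose (median difference −3.57). Only 3 of the epithelial markers reached the filter in blood, and 8 of the leukocyte markers reached it in nose. The rest were tested only through the tissue where they were high, and so give the labels no support. Of markers of other tissue, 11 of 11 olfactory neuron and 5 of 5 sustentacular cell and olfactory gland markers were also higher in nose. So were 8 of 8 fibroblast and 7 of 8 endothelial markers tested. Of these lists 6, 1, 5 and 8 markers, in this order, reached the filter in blood, and the rest were tested only through nose. Their median differences were 2.69, 6.46, 3.23 and 1.47, against 0.32 for all probe sets, of which 58.7% were higher in nose and 22.4% lower. Some arrays stood apart in these markers. Replicate 1 of the 28 d nose controls had an olfactory neuron mean of 7.38, against 9.66 and 9.45 on the other arrays of its group, and replicate 1 of the 7 d nose controls had 8.82 against 10.12 and 9.92.

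The keratins of simple epithelium and of basal cells were the ones that set the unexposed nose most apart from the unexposed blood. Of 38 keratins tested over the 24 arrays, 31 were higher in nose, 1 was lower and 6 did not pass the test. Of these, 5 (Krt1, Krt10, Krt23, Krt28 and Krt76) reached the filter in nose only and so had to be higher there, and 4 reached it in blood only. Among the 29 that reached it in both tissues 24 were higher in nose, 1 was lower and 4 did not pass, with a median difference of 0.62. Among all 23724 probe sets tested 81.1% passed, 58.7% as higher in nose and 22.4% as lower, so a keratin that was merely called higher in nose did as most genes did. The median difference was 0.67 for the keratins and 0.32 for all probe sets. It was 4.25 for the 6 simple epithelial keratins tested, 4.08 for the 3 basal and stem cell keratins, 1.26 for the 9 stratified and squamous keratins, 0.57 for the 4 inner root sheath keratins and 0.23 for the 13 hair keratins. A bulk sample does not tell fewer cells of a type from less RNA per cell, here or in any comparison that follows.

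Krt18, the type I keratin of simple epithelium, had 12.54, 12.48 and 12.42 in 7 d control nose, against 7.22, 7.31 and 7.26 in 7 d control blood, and 11.60, 11.41 and 11.49 in 28 d control nose, against 6.79, 6.74 and 6.67 in 28 d control blood. Every nose array lay far above every blood array. The difference was 4.99 (SE 0.06), a 31.8-fold higher level in nose (limma, adjusted p = 4.45e-24). Its type II partner Krt8 had 11.81, 11.83 and 11.76 in 7 d control nose, against 7.20, 7.15 and 7.18 in 7 d control blood, and 10.86, 10.97 and 10.88 in 28 d control nose, against 6.31, 6.04 and 5.97 in 28 d control blood. The groups did not overlap, and the difference of 4.71 (SE 0.08) made the level 26.2-fold higher in nose (limma, adjusted p = 7.27e-22). The other probe sets of the pair were also higher in nose, by 6.12 for Krt8 and by 3.87 and 0.65 for Krt18, so the size of the difference depended on the probe set. The 250 bases before the RefSeq start site of the 2 genes are given because the pair was high in nose and its represented probe sets lay lower on every exposed nose array in the comparisons that follow. They are written 5′ to 3′ from the gene's own strand, from RefSeq GRCr8, with Krt18 at chr7:135035918-135036167 on the plus strand and Krt8 at chr7:135010340-135010589 on the minus strand. In capitals are the letters GGGCGG of a GC box in Krt18 and overlapping matches to the letters TATAAA of a TATA box in Krt8. The matches in Krt8 lie on both strands. Whether any of these matches acts as a promoter element was not tested.
Krt18: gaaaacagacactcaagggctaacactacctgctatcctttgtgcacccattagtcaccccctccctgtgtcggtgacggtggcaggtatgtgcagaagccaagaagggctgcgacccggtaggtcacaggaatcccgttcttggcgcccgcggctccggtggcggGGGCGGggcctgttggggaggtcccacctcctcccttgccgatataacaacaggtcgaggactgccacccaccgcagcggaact
Krt8: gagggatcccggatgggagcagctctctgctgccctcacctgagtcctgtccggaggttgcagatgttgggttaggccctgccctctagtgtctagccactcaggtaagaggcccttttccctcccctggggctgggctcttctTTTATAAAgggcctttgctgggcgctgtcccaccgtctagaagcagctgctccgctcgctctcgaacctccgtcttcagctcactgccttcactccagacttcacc
Counted from the start site, the match in Krt18 began at −84 and the overlapping matches in Krt8 began at −106 and −104.

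Krt15, a keratin of basal cells and of epithelial stem cells, was the basal keratin with the largest difference between tissues. It had 12.56, 12.48 and 12.52 in 7 d control nose, against 7.42, 7.19 and 7.29 in 7 d control blood, and 12.11, 11.35 and 11.29 in 28 d control nose, against 7.00, 7.18 and 6.91 in 28 d control blood. The difference was 4.89 (SE 0.24), or 29.6-fold (limma, adjusted p = 6.37e-14). Krt14, the basal layer keratin, was 16.9-fold higher in nose (log2 difference 4.08, SE 0.11), and Krt17, which basal cells of complex epithelia and injured keratinocytes make, was 10.5-fold higher (3.39, SE 0.29). Krt19, a keratin of simple and basal cells that lacks the usual tail domain, was 19.6-fold higher (4.29, SE 0.16), and Krt23, a type I keratin of simple epithelia, differed by 4.20 (SE 0.10), though its blood mean of 5.79 lay below the blood filter. Krt7, a keratin of ducts and glands, differed by 1.31 (SE 0.08) and Krt80, a type II keratin of many epithelia, by 1.16 (SE 0.12), which were the smallest differences among the simple epithelial keratins.

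All 6 stratified and squamous keratins that reached the filter in both tissues were higher in nose, with a median difference of 0.71, and the other 3 tested, Krt1, Krt10 and Krt76, were tested only through their level in nose. The largest differences were those of Krt4 (2.37, SE 0.39), a keratin of non-cornifying mucosa, Krt77 (2.12, SE 0.10), a relative of Krt1 known from epidermis and sweat ducts, Krt10 (2.08, SE 0.31) and Krt76 (1.61, SE 0.39), a type II keratin of the cornifying oral mucosa. Krt1 differed by 1.26 (SE 0.23), Krt13 by 0.85 (SE 0.22), the corneal keratins Krt12 and Krt24 by 0.57 and 0.54, and Krt9, known from palm and sole, by 0.41. Among hair keratins Krt33b was lower in nose (−0.29, SE 0.10, limma, adjusted p = 0.014), and Krt34, Krt39, Krt81, Krt85, Krt86 and the root sheath keratin Krt73 did not pass, with differences between −0.12 and 0.17. The direction of the small differences rested on the scaling of the arrays. When each array was centred on its median the median difference of all probe sets was −0.34 rather than 0.32. Of 38 keratins 15 were then higher in nose and 14 lower, against 6221 and 14044 of all 23724 probe sets. Krt9 passed as lower in nose under this centring and under quantile normalization. The latter also left 15 keratins higher and 14 lower, against 7813 and 11709 of all 23724 probe sets. The differences of Krt12 and Krt24 were below 0 under both scalings without passing. Krt13 (0.18) no longer passed under centring, Krt33b was −0.96, and Krt7 (0.64), Krt1 (0.59), Krt76 (0.94) and Krt80 (0.50) were higher by less. By contrast Krt14, Krt15, Krt17, Krt18, Krt19, Krt23 and Krt8 remained higher under both scalings, though by less. Under centring the differences were 4.32 for Krt18, 4.22 for Krt15, 4.04 for Krt8, 3.62 for Krt19, 3.53 for Krt23, 3.41 for Krt14 and 2.73 for Krt17. The fold values given for the deposited intensities thus depend on the scaling.

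**Figure D1:**
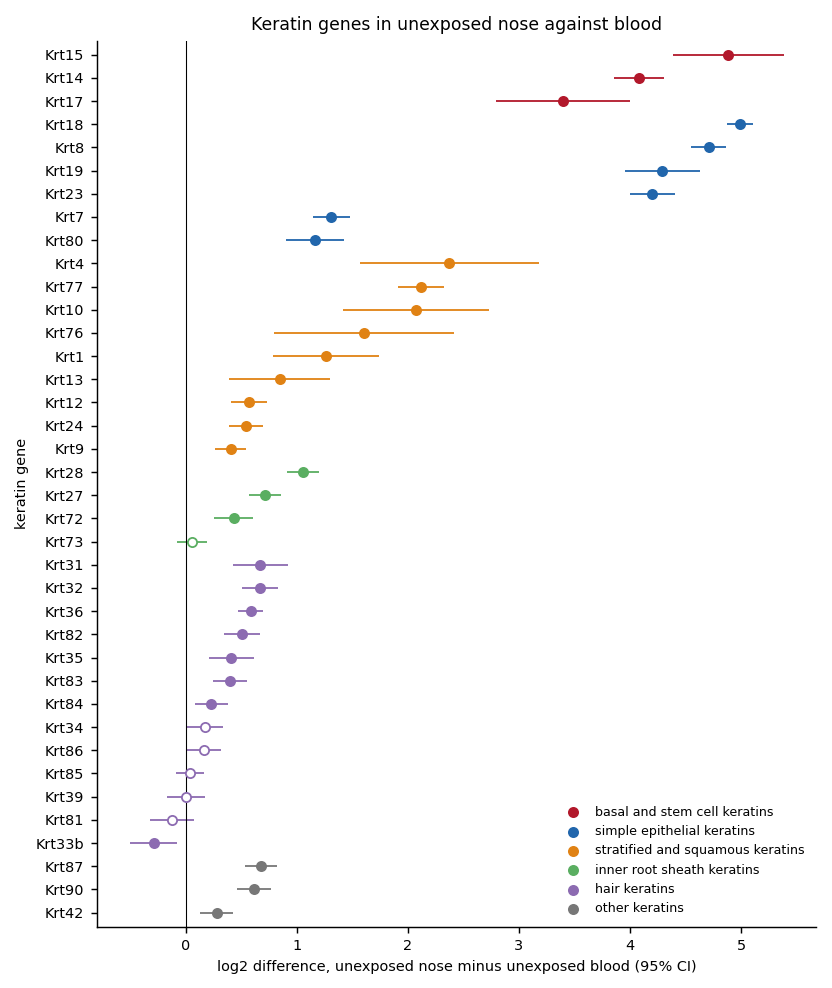
Log2 difference of each tested keratin, unexposed nose minus unexposed blood (x axis, log2 units), by gene (y axis) and coloured by role, with points for the estimate and lines for its 95% confidence interval over 24 arrays. Filled points passed the test and open points did not; the basal keratins and 4 of the 6 simple epithelial keratins lie at 3.39 or more, while the hair keratins lie between −0.29 and 0.67.

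In nose at 7 d every tested keratin of simple epithelium and of basal cells had a difference below 0, and no keratin passed the test. Of 34 keratins tested 0 passed, while 16.3% of all probe sets did (8.43% as higher and 7.84% as lower), and 7 keratins (20.6%) had an unadjusted p under 0.05, while 30.4% of all probe sets did. A difference below 0 was seen for 30 of the 34 keratins (88.2%), and for 60.4% of all probe sets. All 3 exposed arrays lay below all 3 control arrays for 12 keratins (35.3%) and above them for 0, against 32.4% and 20.8% of all probe sets, so the share of keratins without overlap on the lower side was near that of all genes. The median difference was −0.13 for the keratins and −0.05 for all probe sets. By role it was −0.49 for the 3 basal, −0.40 for the 6 simple epithelial, −0.19 for the 9 stratified and squamous, −0.09 for the 10 hair and 0.01 for the 3 inner root sheath keratins.

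Among the basal keratins Krt15 had the largest difference. It had 10.18, 11.98 and 12.34 in exposed nose, against 12.56, 12.48 and 12.52 in control nose. The exposed arrays all lay below the controls but were spread widely, with replicate 1 lowest, and the difference was −1.02 (SE 0.45, limma, adjusted p = 0.154). Krt14 had 10.30, 10.63 and 10.57 in exposed nose, against 10.82, 10.71 and 10.95 in control nose, a difference of −0.33 (SE 0.19, limma, adjusted p = 0.278) with no overlap. Krt17 had 8.64, 9.37 and 9.41 in exposed nose, against 9.55, 9.39 and 9.95 in control nose, and its groups overlapped (−0.49, SE 0.55, limma, adjusted p = 0.62).

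All 6 simple epithelial keratins tested had a difference below 0, and 5 of them showed no overlap between the groups. Krt8 had 11.38, 11.66 and 11.67 in exposed nose, against 11.81, 11.83 and 11.76 in control nose, a difference of −0.23 (SE 0.09, limma, adjusted p = 0.0967). Its partner Krt18 had 12.03, 12.29 and 12.31 in exposed nose, against 12.54, 12.48 and 12.42 in control nose, a difference of −0.27 (SE 0.09, limma, adjusted p = 0.0653). Both partners lay lower on every exposed array by a small amount. A second probe set of Krt18 did pass (−0.35, SE 0.10, limma, adjusted p = 0.0334), its remaining probe set did not (−0.20, adjusted p = 0.312), and the second of Krt8 did not (−0.23, adjusted p = 0.103). Krt23 had 9.64, 10.25 and 10.21 in exposed nose, against 10.59, 10.57 and 10.55 in control nose, a difference of −0.53 (SE 0.17, limma, adjusted p = 0.0598). Krt19 had 10.18, 11.25 and 11.32 in exposed nose, against 11.60, 11.28 and 11.61 in control nose, a difference of −0.58 (SE 0.29, limma, adjusted p = 0.207), and was the simple epithelial keratin whose groups overlapped. Krt7 differed by −0.33 (SE 0.12, limma, adjusted p = 0.0911) and Krt80 by −0.47 (SE 0.22, limma, adjusted p = 0.18), without overlap. The hair keratin Krt36 (−0.20) and the root sheath keratin Krt28 (−0.10) were the keratins of the other roles without overlap.

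The stratified and squamous keratins were more mixed at 7 d. Krt77 had 7.91, 8.37 and 8.42 in exposed nose, against 8.81, 8.73 and 8.65 in control nose, a difference of −0.50 (SE 0.16, limma, adjusted p = 0.0543) that was the nearest of the keratins to the threshold. Krt13 (−0.53, SE 0.41) and Krt12 (−0.19, SE 0.11) also showed no overlap, with adjusted p-values of 0.441 and 0.259 in limma. The epidermal pair did not separate: Krt1 had 6.73, 6.78 and 7.51 in exposed nose, against 8.09, 6.46 and 6.65 in control nose, and Krt10 had 7.44, 7.41 and 8.06 in exposed nose, against 8.70, 7.38 and 7.62 in control nose. Their differences were −0.06 (SE 0.43) and −0.27 (SE 0.60), and in both genes replicate 1 of the controls was the highest of the 6 arrays. Krt4 differed by −0.54 (SE 0.73), Krt24 by −0.13 (SE 0.12) and Krt76 by −0.07 (SE 0.73), and Krt9, with the highest difference of the 34 keratins above the filter, by 0.11 (SE 0.11). Krt27 (0.10) and Krt81 (0.06) were next to it. Krt16, which keratinocytes make on injury, lay below the intensity filter, with 6.22, 6.61 and 6.72 in exposed nose, against 6.78, 6.28 and 7.32 in control nose.

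The other 9 keratins below the filter in nose were Krt2, Krt20, Krt25, Krt26, Krt31, Krt34, Krt39, Krt40 and Krt72. Krt26, a root sheath keratin, missed the filter narrowly and had 7.59, 7.27 and 7.38 in exposed nose, against 6.99, 6.98 and 6.90 in control nose. The groups did not overlap, and 20.8% of all probe sets above the filter also lay higher on every exposed array. Without the filter the difference of Krt26, 0.45 (SE 0.10, limma, adjusted p = 0.0182), passed as higher, the only one of the 10 that did. Of all 29214 probe sets 2109 passed as higher without the filter and 1642 as lower.

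**Figure D2:**
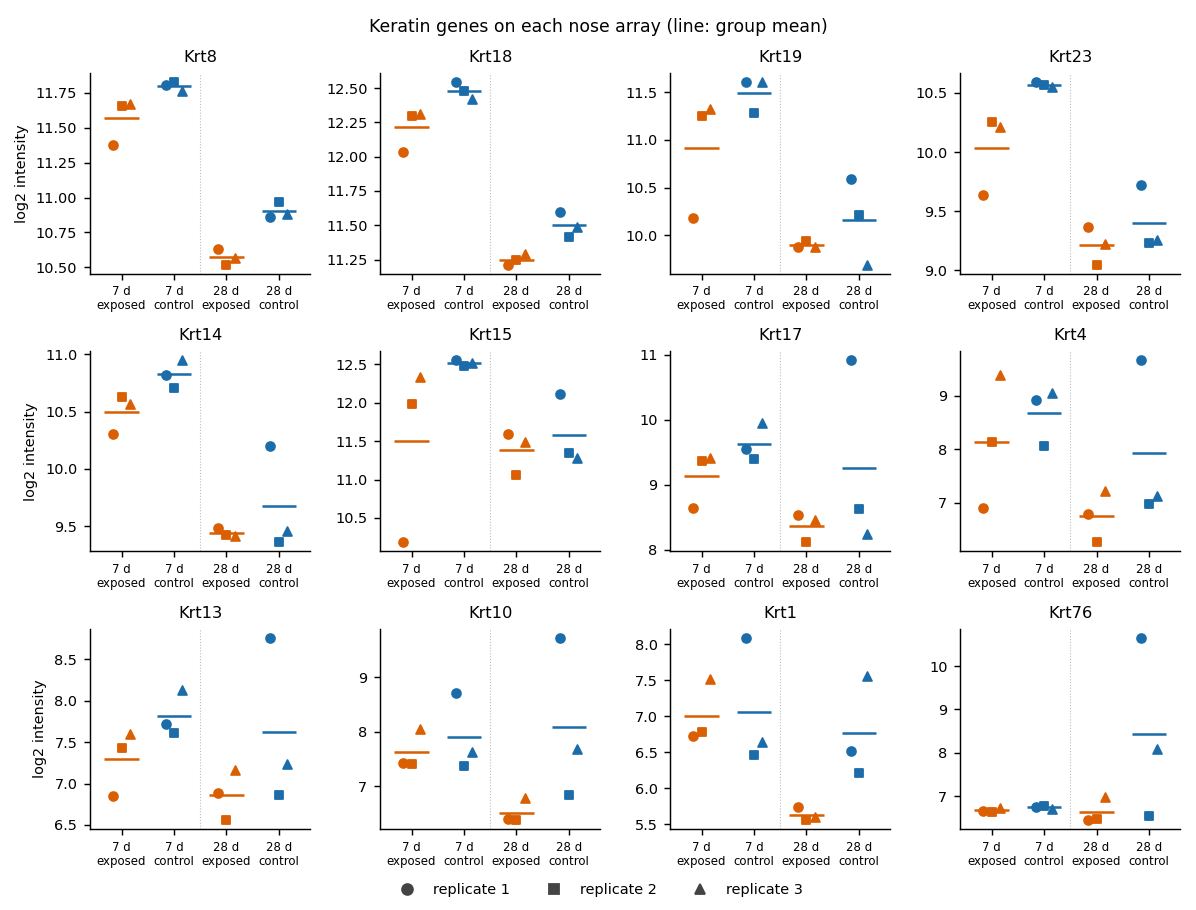
Log2 intensity (y axes, own scale in each panel) of 12 keratins on each nose array, by group (x axes: 7 d exposed, 7 d control, 28 d exposed, 28 d control), with lines for the mean of 3 arrays and marker shapes for the replicate. Krt8 and Krt18 lie lower in exposed than in control nose at both days, Krt15 at 7 d spans 10.18 to 12.34 among exposed arrays, and 28 d control replicate 1 stands high in Krt17, Krt13, Krt10 and Krt76.

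In nose at 28 d the largest differences were those of stratified and squamous keratins, and no keratin passed the test. Of 34 keratins 0 passed, while 0.00456% of all probe sets did, which is 1 probe set, and 7 keratins (20.6%) had an unadjusted p under 0.05, while 15.4% of all probe sets did. Differences below 0 were seen for 27 keratins (79.4%) and for 47.3% of all probe sets. The exposed arrays all lay below the controls for 6 keratins (17.6%) and above them for 0, against 8.7% and 7.48% of all probe sets. The median difference was −0.17 for the keratins, against 0.01 for all probe sets, and by role it was −0.75 for stratified and squamous, −0.26 for simple epithelial, −0.23 for basal, −0.05 for hair and −0.01 for inner root sheath keratins.

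Krt76 had the largest difference of the family. It had 6.45, 6.47 and 7.00 in exposed nose, against 10.65, 6.56 and 8.10 in control nose. Control replicate 2 lay among the exposed arrays while replicate 1 lay far above them, and the difference was −1.79 (SE 0.73, limma, adjusted p = 0.277). Krt10, which pairs with Krt1 above the basal layer, had 6.39, 6.38 and 6.78 in exposed nose, against 9.72, 6.84 and 7.69 in control nose. Its exposed arrays all lay below the controls, by a little for control replicate 2 and by much for replicate 1, and the difference was −1.56 (SE 0.60, limma, adjusted p = 0.252). Krt1 had 5.74, 5.56 and 5.61 in exposed nose, against 6.52, 6.22 and 7.56 in control nose, a difference of −1.13 (SE 0.43, limma, adjusted p = 0.251) with no overlap and with control replicate 3 highest. The 250 bases before the start sites of Krt10 (chr10:84839161-84839410, minus strand) and Krt76 (chr7:134904163-134904412, minus strand) are given from RefSeq GRCr8 because these keratins had the largest differences at this day, with the TATA box TATAAA in capitals.
Krt10: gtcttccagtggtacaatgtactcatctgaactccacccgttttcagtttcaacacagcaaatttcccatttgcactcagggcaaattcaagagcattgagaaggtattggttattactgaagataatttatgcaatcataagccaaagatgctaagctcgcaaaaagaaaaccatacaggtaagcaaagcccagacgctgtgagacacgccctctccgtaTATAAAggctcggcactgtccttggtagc
Krt76: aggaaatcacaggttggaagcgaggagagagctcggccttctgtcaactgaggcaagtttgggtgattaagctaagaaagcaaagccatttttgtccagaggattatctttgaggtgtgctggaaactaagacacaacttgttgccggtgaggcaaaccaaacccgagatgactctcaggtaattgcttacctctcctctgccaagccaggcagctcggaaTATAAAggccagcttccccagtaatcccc
In each of them the match began at −29 from the start site.

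The mucosal pair Krt4 and Krt13 overlapped between the groups at 28 d. Krt4 had 6.79, 6.26 and 7.22 in exposed nose, against 9.67, 6.98 and 7.13 in control nose (difference −1.17, SE 0.73, limma, adjusted p = 0.464). Krt13 had 6.88, 6.56 and 7.16 in exposed nose, against 8.76, 6.86 and 7.23 in control nose (−0.75, SE 0.41, limma, adjusted p = 0.403). In both genes control replicate 1 was the highest array and the other controls lay within the range of the exposed arrays or close to it. Krt77 differed by −0.30, Krt24 by −0.24, Krt12 by −0.23 and Krt9 by −0.07. Krt16 had 5.75, 5.50 and 5.90 in exposed nose, against 7.34, 5.61 and 5.67 in control nose, with control replicate 1 again apart.

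The represented probe sets of the simple epithelial pair lay lower on every exposed array at 28 d too. Krt8 had 10.63, 10.52 and 10.57 in exposed nose, against 10.86, 10.97 and 10.88 in control nose, a difference of −0.33 (SE 0.09, limma, adjusted p = 0.14). Krt18 had 11.21, 11.25 and 11.29 in exposed nose, against 11.60, 11.41 and 11.49 in control nose, a difference of −0.25 (SE 0.09, limma, adjusted p = 0.227). Neither passed the test, nor did the second probe set of Krt18 (−0.52, SE 0.10, limma, adjusted p = 0.0945), that of Krt8 (−0.27, adjusted p = 0.204) or the remaining probe set of Krt18 (−0.18, adjusted p = 0.516), whose groups overlapped. Krt80 (−0.33) and the hair keratin Krt36 (−0.20) were the remaining keratins without overlap. Krt19 differed by −0.27, Krt23 by −0.19 and Krt7 by 0.04, and among the basal keratins Krt17 differed by −0.89 (SE 0.55), Krt14 by −0.23 and Krt15 by −0.20. The highest values were those of the hair keratins Krt81 (0.08), Krt83 (0.07) and Krt86 (0.05).

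Single arrays stood out in these differences. At 28 d control replicate 1 was the highest control in 3 of 3 basal, 5 of 6 simple epithelial and 5 of 9 stratified keratins, and at 7 d exposed replicate 1 was the lowest exposed array in 3 of 3, 6 of 6 and 7 of 9. Without 28 d control replicate 1 the median of the stratified keratins was −0.25, that of the simple epithelial keratins −0.05 and that of the basal keratins 0.03, with 26 of the 34 keratins still below 0. Without exposed replicate 1 the 7 d medians were −0.10 for stratified, −0.22 for simple epithelial and −0.24 for basal keratins, with 28 of 34 below 0. Pooled over the 4 nose groups the SD of a keratin had a median of 0.152, against 0.148 for all probe sets, yet 8 of the 34 keratins (Krt1, Krt4, Krt10, Krt13, Krt15, Krt17, Krt19 and Krt76) lay above percentile 90 of all probe sets, an SD of 0.322.

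**Figure D3:**
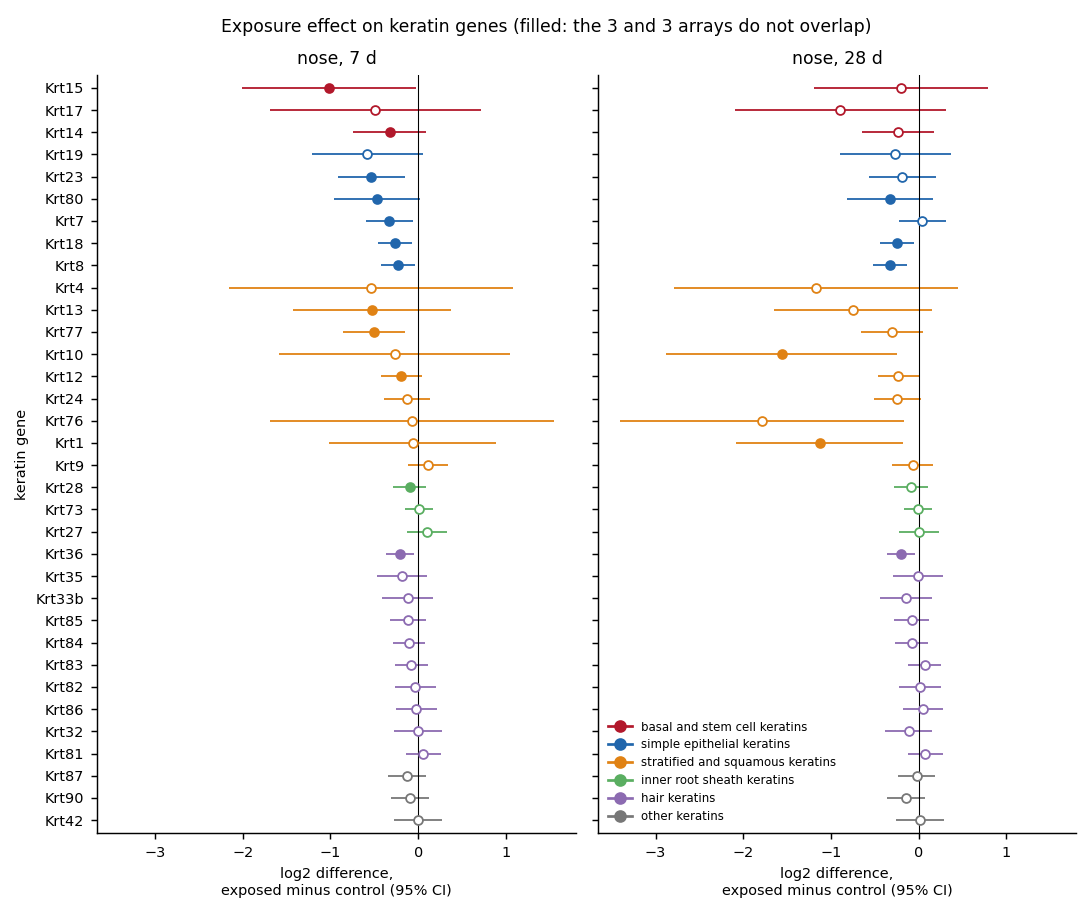
Log2 difference, exposed minus control nose (x axes, log2 units), of the 34 tested keratins (y axis) at 7 d (left) and 28 d (right), with lines for the 95% confidence interval. Filled points mark the 12 keratins at 7 d and the 6 at 28 d whose exposed arrays all lay below the controls; the interval is widest for Krt4 and Krt76.

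The difference between the exposure effects of the 2 days was itself tested in nose. It passed for 0 of 34 keratins and for 0.1% of all probe sets, and an unadjusted p under 0.05 was reached by 0 keratins and by 13.6% of all probe sets. The largest values, 28 d minus 7 d effect, were −1.72 (SE 1.04, limma, adjusted p = 0.451) for Krt76, −1.29 (SE 0.84) for Krt10, −1.07 (SE 0.61) for Krt1 and 0.82 (SE 0.64) for Krt15. The intervals were wide, running from −4.01 to 0.57 for Krt76, so the larger values of the stratified keratins at 28 d were not shown to differ from those at 7 d.

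The partners that tie keratin filaments to the cell surface and to the matrix were read from the same fit in nose at 7 d. Of all probe sets 8.43% rose and 7.84% fell there, 30.4% had an unadjusted p under 0.05 and 32.4% lay lower on every exposed array. Of 6 hemidesmosome genes tested 4 fell, namely Lamb3 (−0.84, SE 0.21) and Lama3 (−0.55, SE 0.16), chains of the laminin that hemidesmosomes bind, Cd151 (−0.45, SE 0.10), a tetraspanin, and Col17a1 (−0.37, SE 0.08), a collagen that spans the membrane, with limma adjusted p-values of 0.0227, 0.0365, 0.0147 and 0.0144. All 6 lay lower on every exposed array. Of 10 desmosome and keratin linker genes 0 passed and 7 had an unadjusted p under 0.05, and 8 showed no overlap on the lower side, the median being −0.38. The desmosomal cadherin Dsc3 differed by −0.60, the plakophilin Pkp3 by −0.38, the linker Plec by −0.49 and Perp, a membrane protein of desmosomes, by −0.53, with limma adjusted p-values between 0.0698 and 0.0772. Of 6 genes of the cornified envelope 0 passed, also at an unadjusted p under 0.05, with values of −0.73 for Cnfn, −0.47 for Sprr3, −0.30 for Tgm1 and −0.06 for Sbsn. Of 10 other intermediate filament genes Des (−0.53), Synm (−0.32) and Bfsp1 (−0.38) fell and Ina (0.85), a neuronal filament, rose, but 0 of these 4 calls held without exposed replicate 1, control replicate 1 or control replicate 3.

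None of these partners passed in nose at 28 d. The cornified envelope genes then had a median of −0.60, against −0.08 for the desmosome and −0.13 for the hemidesmosome genes. Without control replicate 1 these medians were −0.23, 0.14 and 0.08. Sprr3, a small proline-rich protein of the envelope, had the largest difference (−1.84, SE 0.57, limma, adjusted p = 0.182). The cornified envelope mean was 6.74, 6.74 and 6.80 in exposed nose, against 8.34, 6.85 and 7.48 in control nose, so control replicate 1 was the highest array here as it was for Krt10 and Krt76.

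Markers of other cells moved beside the keratins in nose at 7 d, where 8.43% of all probe sets rose and 7.84% fell. Of 9 markers common to epithelia 1 fell (the epithelial transcription factor Elf3, −0.89) and 9 were below 0, with a mean of 10.21 to 10.68 in exposed nose, against 10.94 to 11.01 in control nose. Of 7 basal cell markers 4 fell, the gap junction gene Gjb2 (−0.85), the serpin Serpinb5 (−1.17), Pdpn (−0.27) and Tp63 (−0.38), the transcription factor of basal cells, with a mean of 8.39 to 8.93 in exposed nose, against 9.21 to 9.34 in control nose. Of 11 olfactory neuron markers 6 rose, among them Ncam2 (2.31), Cnga4 (2.15), Rtp2 (1.10) and Gap43 (0.79), with a mean of 11.24 to 11.62 in exposed nose, against 8.82 to 10.12 in control nose. All 8 endothelial markers fell, by a median of −0.71 and led by Erg (−0.71) and Pecam1 (−0.97), as did 4 of 8 leukocyte markers, with Ptprc at −0.93. Of 8 ciliated cell markers Ccdc40 (0.68), Ccdc39 (0.57) and Rsph1 (0.42) rose, while 4 of the 8 were below 0 (list median 0.11). Of 9 mucous and secretory markers Slpi (−0.81) and Muc1 (−1.09) fell, while 3 of the 9 were above 0. Of 8 fibroblast markers 4 fell and 1 rose, with Dpt at −1.86. Of 4 platelet markers Ppbp (0.43) rose, while 2 of the 4 were below 0 (list median −0.0086). Of 5 sustentacular and 8 bone and cartilage markers 0 passed, with 1 and 2 at an unadjusted p under 0.05. Many of these calls were lost without a single array. Over all 21910 probe sets the calls fell as well, from 3564 to 859, 2684 and 2723 without exposed replicates 1, 2 and 3. They fell to 808, 2428 and 1565 without control replicates 1, 2 and 3. With each of the 6 arrays left out in turn the calls ranged from 0 to 4 for the hemidesmosome genes (4 with all arrays), from 0 to 3 for the basal cell markers (4), from 2 to 5 for the olfactory markers (6), from 3 to 8 for the endothelial markers (8), from 1 to 3 for the leukocyte markers (4), from 0 to 4 for the fibroblast markers (5), from 2 to 3 for the ciliated cell markers (3), from 0 to 3 for the mucous and secretory markers (2), and from 0 to 1 for the platelet markers (1) and the markers common to epithelia (1). Without exposed replicate 1 and without control replicate 1, 0 calls of the hemidesmosome, basal cell, mucous, platelet and epithelial lists held, the olfactory list had 2, the endothelial list 3, the leukocyte list 1 and the fibroblast list 1 and 0. Without control replicate 3, 0 calls of the basal cell, mucous, platelet and epithelial lists held, the hemidesmosome list had 2, the olfactory list 3, the endothelial list 5, the leukocyte list 1, the fibroblast list 1 and the bone and cartilage list 1. Without control replicate 2 the basal cell list had 1 call, the mucous list 1, the fibroblast list 3 and the platelet and epithelial lists 0. Leaving out exposed replicate 2 left the olfactory list with 4, the fibroblast list with 2, the mucous list with 1 and the other intermediate filaments with 2, and leaving out exposed replicate 3 left the olfactory list with 4, the basal cell list with 2, the platelet list with 0, the mucous list with 3 and the other intermediate filaments with 2.

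In nose at 28 d 0 of the 117 partner and marker genes tested passed, and 28 had an unadjusted p under 0.05, while 0.00456% and 15.4% of all probe sets did. With 1 array left out the keratin calls stayed at 0, and the lists with calls were mucous and secretory (2 without control replicate 1, 1 without replicate 2 and 1 without replicate 3), leukocyte (1 without control replicate 1 and 1 without replicate 2), fibroblast (1 without control replicate 1) and cornified envelope (1 without control replicate 2). Over all 21910 probe sets 1081, 130 and 3 passed without control replicates 1, 2 and 3. The olfactory neuron mean was 9.73 to 10.09 in exposed nose, against 7.38 to 9.66 in control nose. The median difference of the olfactory neuron markers was 1.13, or 0.36 without control replicate 1. Replicate 1 of the 28 d controls, the highest control in 13 of the 18 basal, simple epithelial and stratified keratins, thus had the lowest olfactory mean, whereas over all 34 keratins it was the highest control in 15 and replicate 3 in 16. The part of the sampled lining in the keratin values of either day was not tested.

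**Figure D4:**
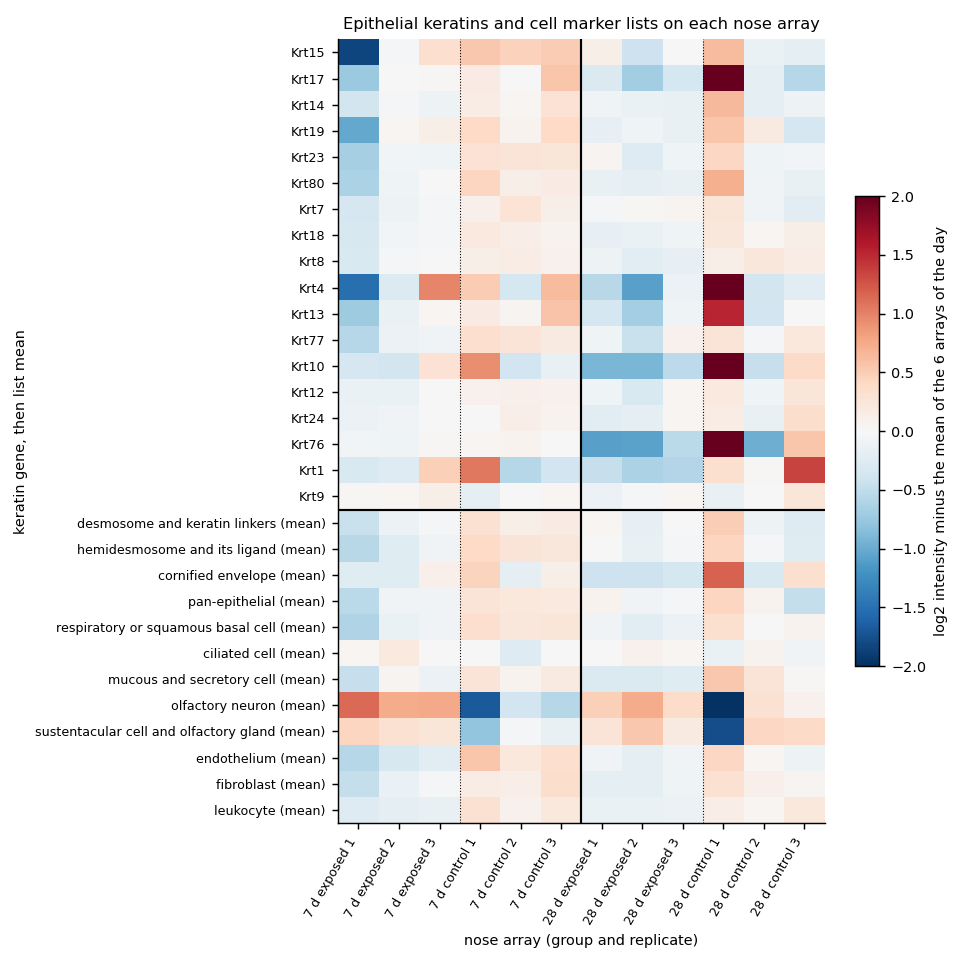
Log2 intensity minus the mean of the 6 nose arrays of the same day (colour, blue lower and red higher, with values beyond 2 drawn in the end colours), for 18 keratins and for the means of 12 partner and marker lists (rows) on each nose array (columns, exposed left of control within a day). On 7 d exposed replicate 1 the basal and simple keratins are low where the olfactory neuron mean is 11.62, and on 28 d control replicate 1 most basal, simple and stratified keratins are high where that mean is 7.38.

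**Figure D5:**
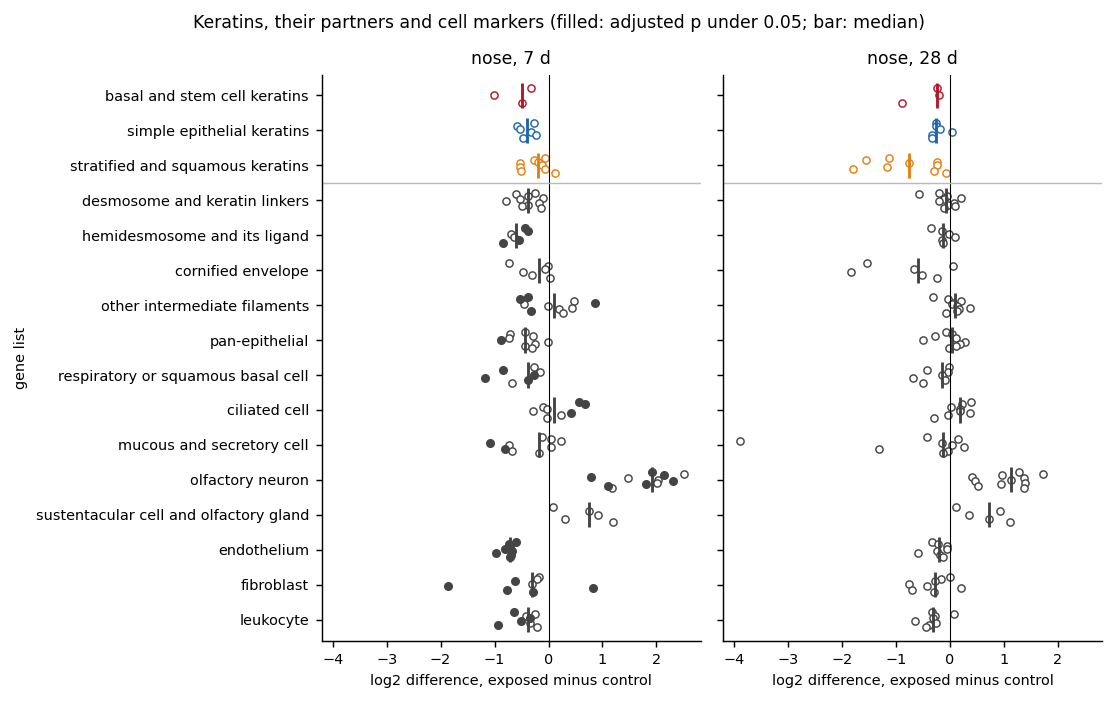
Log2 difference, exposed minus control nose (x axes, log2 units), of each gene of 3 keratin roles (coloured) and of partner and marker lists (grey) at 7 d (left) and 28 d (right), with bars for the list medians. Filled points passed the test: 0 keratins at either day, 4 hemidesmosome, 6 olfactory neuron and 8 endothelial genes at 7 d, and 0 genes of any list at 28 d.

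In blood no keratin passed the test of exposure. At 7 d 0 of 33 keratins passed, while 0.475% of all probe sets did, and 2 had an unadjusted p under 0.05, while 15.1% of all probe sets did. The groups did not overlap for 5 keratins (4 higher and 1 lower), against 29.9% of all probe sets. Krt17 had 6.16, 6.34 and 6.31 in exposed blood, against 6.17, 5.89 and 6.10 in control blood, with overlap between the groups and a difference of 0.22 (SE 0.09, limma, adjusted p = 0.296). The hair keratins Krt84 (0.25) and Krt31 (0.25) were the highest, and Krt83 (−0.16), Krt36 (−0.14) and Krt86 (−0.12) the lowest. Krt77 had 6.44, 6.39 and 6.34 in exposed blood, against 6.34, 6.03 and 6.19 in control blood, a difference of 0.21 (SE 0.11), with a gap of 0.0018 between the lowest exposed and the highest control array.

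At 28 d 0 of 33 keratins passed in blood, while 5.27% of all probe sets did, and 0 had an unadjusted p under 0.05, while 17.9% of all probe sets did. The groups did not overlap for 1 keratin, against 17.8% of all probe sets. Krt8 had 6.20, 6.62 and 6.21 in exposed blood, against 6.31, 6.04 and 5.97 in control blood, the largest difference (0.24, SE 0.12, limma, adjusted p = 0.322). Exposed replicate 2 stood above the others of its group, and the groups overlapped. Krt81 (0.19) and Krt82 (0.14) followed, and the lowest values were those of Krt83 (−0.18), Krt73 (−0.15) and Krt31 (−0.11). The difference between the effects of the 2 days passed for 0 keratins and for 0% of all probe sets, and an unadjusted p under 0.05 was reached by 1 keratin, Krt31 (−0.36), and by 11.5% of all probe sets.

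The promoter windows of the family, 250 bases before to 50 bases after the start site, were found in the RefSeq table for 32 of the 44 members. TATAAA was present on either strand in 20 of the 32 (62.5%) and in 14.2% of all 33469 promoter windows of the table. It was found in 6 of 6 inner root sheath, 8 of 11 hair, 2 of 4 simple epithelial, 3 of 8 stratified and squamous and 1 of 3 other keratin promoters. GGGCGG was present in 4 (12.5%), against 33.1% of all windows, and the AP-1 site TGANTCA in 2 (6.25%), against 7.33%. The windows of the basal keratins Krt14, Krt15 and Krt17 and of Krt1, Krt7, Krt13 and Krt19 were not used here.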

How the data were processed

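RNA of nasal tissue and white blood cells was measured on 24 arrays in 8 groups taken from the sample titles. For each probe set and array the authors deposited 1 normalized intensity, a linear value. The submitters' processing notes name Partek, with no version; how background was corrected and how probes were summarized and normalized is not given in the sources used here. Here log2 of the deposited intensity was taken with no further normalization, so all log2 values are of deposited intensities. Probe sets were named through the platform annotation, with 15310 probe sets of 1 symbol, 323 of several and 13581 of none; 15279 of the first matched the RefSeq gene table, and 0 keratin symbols needed updating. No statement of the array design's build was used, so gene coordinates are those of the RefSeq GRCr8 promoter table.

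A probe set entered the fit where its mean reached percentile 25 of the tissue (of nose or of blood, for the comparison of tissues). Fits were made with limma 3.58.1 in R 4.3.3 (lmFit, contrasts.fit, eBayes) on the 12 arrays of a tissue or on all 24. Tests were two-sided, with Benjamini-Hochberg adjustment over all probe sets kept and a threshold of 0.05. The comparison of tissues averages the day-wise differences between controls; picking a probe set by its nose mean favours a higher nose value, and picking by the blood mean left the same count of 32 calls. Named with values were all tested basal, simple, stratified and injury-inducible keratins, those past the threshold, the 3 largest differences in each direction of each exposure comparison, the 5 largest between tissues, and up to 4 genes of each partner and marker list by their statistic in nose at 7 d. Any other gene named was picked with its values in view. The members and lists were chosen with earlier results of these data known.

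Replicate numbers were checked for pairing by correlating deviations from group means between exposed and control arrays of the same number. In nose at 28 d the 3 correlations were 0.19, 0.25 and 0.15. Arrays of unlike number correlated there as well, at 0.20 (exposed 1 with control 2), 0.21 (exposed 2 with control 3) and 0.15 (exposed 3 with control 1). The other pairs of unlike number ran from −0.45 to −0.34. The numbers were therefore not shown to pair these arrays. At 7 d the correlations of the same number were −0.26, −0.08 and −0.14, and in blood they ran from −0.35 to 0.07. The labels state no pairing. The fits were tested on simulated data. Alternatives changed the filter, the scaling, the prior of the spread, the threshold, the arrays in a fit, the probe set of a gene and the replicate block, and dropped each array once. Krt5, Krt75 and Krt33a were left out because their probe sets carry several symbols. Figures were drawn with matplotlib 3.10.9 in Python 3.11.15.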

Additional observations from a re-analysis of the deposited data

Results flagged for a closer look

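Krt77 was lower on every exposed array than on every control array in nose at 7 d and higher on every exposed array than on every control array in blood at 7 d. The effects were −0.50 in nose and 0.21 in blood, a gap of −0.71 on the log2 scale between the tissues. In blood the lowest exposed and the highest control array were 0.0018 apart on the log2 scale, and in blood at 28 d Krt77 overlapped between the groups, with 5.68, 5.85 and 6.00 on exposed arrays, against 6.04, 5.94 and 5.70 on control arrays. The mean of Krt77 over the blood arrays was 6.08, close to the filter level of 5.96. In blood at 7 d 29.9% of all probe sets did not overlap between the groups. Neither 7 d effect passed its test, and the difference between the tissues was not tested.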

How the results depend on the processing

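The settings varied were the filter, the scaling, the prior of the spread, the threshold, the arrays in the fit, the probe set of a gene, a replicate block and, array by array, the samples. The count of keratins past the threshold in nose at 7 d was 0, and it was 1 with no filter (Krt26), 1 with the mean over the probe sets of a gene (Krt18), 3 in a fit of only the 6 arrays compared (Krt7, Krt12 and Krt77) and 6 at an adjusted p under 0.1 (Krt7, Krt8, Krt18, Krt23, Krt36 and Krt77). Over all probe sets the counts were 3751 of 29214 with no filter and 3565 of 21307 with the mean over probe sets. They were 6300 of 21910 with only the 6 arrays and 5206 of 21910 at an adjusted p under 0.1. The keratin count was 0 under every setting run in nose at 28 d and in the blood comparisons. For the difference between days in nose it was 0 to 1 with an array left out, the 1 being Krt7 (0.50) without 28 d control replicate 1. Between tissues 32 keratins passed, 15 of the 18 tested with the filter at the median of the tissue, and 31 to 34 with an array left out. With the filter at the median 14166 of all 17331 probe sets tested passed. The replicate block changed no count of keratins, which was 0 in nose at 28 d and 32 between tissues. Over all probe sets the block gave 0 in place of 1 in nose at 28 d and 1795 in place of 3564 at 7 d. It gave 2 in place of 104 in blood at 7 d and 392 in place of 1154 at 28 d. For the difference between days in nose it gave 82 in place of 22, and between tissues 19078 in place of 19232.

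Of the named keratins' values under other settings 1108 kept their direction and side of the threshold, 9 passed it anew, 3 no longer passed and 18 reversed. A change of the filter, the prior, the threshold or the arrays outside a comparison leaves a difference as it was, so it could not reverse it. A keratin that did not pass in either fit counted among the 1108 where its direction held. With an array left out, differences in nose at 7 d ran from −0.36 to 0.45 for Krt1 (above 0 without control replicate 1, exposed replicate 1 or exposed replicate 2), from −0.53 to 0.13 for Krt10 (without control replicate 1) and from −1.16 to 0.086 for Krt4 (without exposed replicate 1). At 28 d they ran from −0.39 to 0.032 for Krt14 and from −0.35 to 0.066 for Krt15, above 0 without control replicate 1, and from −0.16 to 0.040 for Krt9, above 0 without control replicate 3. Krt7 ran from −0.062 to 0.17, below 0 without control replicate 3, Krt81 from −0.0084 to 0.14 and Krt86 from −0.030 to 0.12, both below 0 without exposed replicate 3 and Krt86 also without control replicate 2. Between tissues Krt12 was −0.079 and −0.10, Krt24 −0.095 and −0.13 and Krt9 −0.22 and −0.26 under quantile normalization and median centring, and the share of called probe sets that were higher in nose was 40.0% and 30.7% under these scalings, against 72.4% as deposited. Krt13 did not pass under either scaling, and Krt33b did not pass without blood 7 d control replicate 3. The cause of these changes was not tested.

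Over all probe sets the counts past the threshold moved more. In nose at 7 d it was 3564, with 1795 to 6300 under other settings and 808 to 2723 with an array left out, and in nose at 28 d it was 1, with 0 to 73 and 0 to 1081, the 1081 without control replicate 1. The difference between days in nose had 22, with 1 to 145 and 1 to 2640, the 2640 again without 28 d control replicate 1. Blood had 104 at 7 d (2 to 537 and 2 to 115) and 1154 at 28 d (1 to 1733 and 620 to 1259), and 0 for the difference between days (0 to 1 and 0 to 5). Among the keratins in nose 25 to 30 of 34 were below 0 at 7 d and 25 to 29 at 28 d with an array left out.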
